A study of Homo sapiens with 3 samples.

Results

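Urea cycle genes were examined in HCC-LM3 cells, a human hepatocellular carcinoma (HCC) line, together with genes that feed or drain ammonia next to the cycle. The 9 genes are CPS1, NAGS, OTC, ASS1, ASL, ARG1, ARG2, GLUD1 and GLUL, out of 20043 genes with a probe on the array. All 16 probes that the platform annotation assigns to these symbols were taken. The group was chosen with earlier results of these arrays known, since CPS1 is low mainly with GANT61, so the values of the members are given as a description and not as a test. For 48 h the cells received the vehicle DMSO alone, 20 μM cyclopamine or 20 μM GANT61, and RNA of each culture was hybridized to 1 Illumina HumanHT-12 v4 array. SMO, which relays the Hedgehog (Hh) signal at the membrane, is the target of cyclopamine, and the Gli transcription factors at the end of the pathway are the target of GANT61. The comparison of the 3 arrays asks how expression responds to a block of Hh signaling at these 2 levels. No array was repeated, so no difference has a replicate check and none has a p-value, and precision is limited by the number of arrays.

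The urea cycle turns ammonia into urea and runs in full in hepatocytes. NAGS makes N-acetylglutamate, the obligate activator of CPS1. CPS1 then joins ammonia and bicarbonate to carbamoyl phosphate in the mitochondrion, and OTC transfers this group to ornithine to give citrulline. In the cytosol, ASS1 couples citrulline to aspartate, ASL splits the product into arginine and fumarate, and ARG1 releases urea and returns ornithine. ARG2 is the mitochondrial arginase, found mainly outside hepatocytes. GLUD1 (glutamate dehydrogenase) interconverts glutamate and ammonia, and GLUL (glutamine synthetase) traps ammonia in glutamine.

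In HCC-LM3 cells CPS1 and ASS1 were bright and were the members at least 2-fold lower with GANT61 than with DMSO, ARG2 was above background with GANT61 alone, and 4 members stayed at background on all 3 arrays. The limit for a signal above background was an intensity of 63.75, which is 1.5 times the most common intensity of each array (42.5). All intensities are on a linear scale, and a gene was represented by its brightest probe. Probes of one gene do not move in perfect step, and the SD of a log2 difference estimated from such pairs lay between 0.18 and 0.51. It reflects probes only and says nothing of the spread between cultures. Where 3 intensities stand without a label, they are in the order DMSO, cyclopamine, GANT61.

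The CPS1 probe read 9060 in DMSO-treated cells, against 5742 after cyclopamine and 1451 after GANT61. The level was highest with DMSO and lowest with GANT61, 6.24-fold lower than DMSO, and cyclopamine lay between. On the log2 scale cyclopamine differed from DMSO by −0.66 (SD between probes 0.37) and GANT61 by −2.64 (SD 0.42). With GANT61, CPS1 ranked 21 from the lowest among the 10292 genes above background. With cyclopamine it ranked 1481 of 10236. GANT61 and cyclopamine were given at the same dose for the same time, and between these arrays, without the DMSO array, CPS1 was 3.96-fold lower with GANT61 (log2 difference −1.98, SD 0.21), rank 20 of 10141. CPS1 has 1 probe on the array, so no second probe bears on these values. In RNA from bulk cultures, fewer cells carrying a transcript and less transcript per cell cannot be told apart.

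ASS1, which makes argininosuccinate, was likewise bright, and its brightest probe read 15726 in DMSO-treated cells, 12362 after cyclopamine and 4000 after GANT61. Another bright probe had 17302, 10514 and 3551. Both put the 3 arrays in the same order as CPS1 did. The log2 difference with GANT61 was −1.98 by the first probe and −2.28 by the other, and those with cyclopamine were −0.35 and −0.72. The cyclopamine value of the first probe is smaller than the SD between probes (0.37). Between the treated arrays ASS1 was 3.09-fold lower with GANT61 by the first probe and 2.96-fold by the other (log2 differences of −1.63 and −1.57, SD 0.21). The third probe of ASS1 was dim, at 55.3, 72.7 and 63.1, and exceeded the background limit with cyclopamine alone. With the mean of all 3 probes the log2 difference with GANT61 was −1.36.

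**Figure D1:**
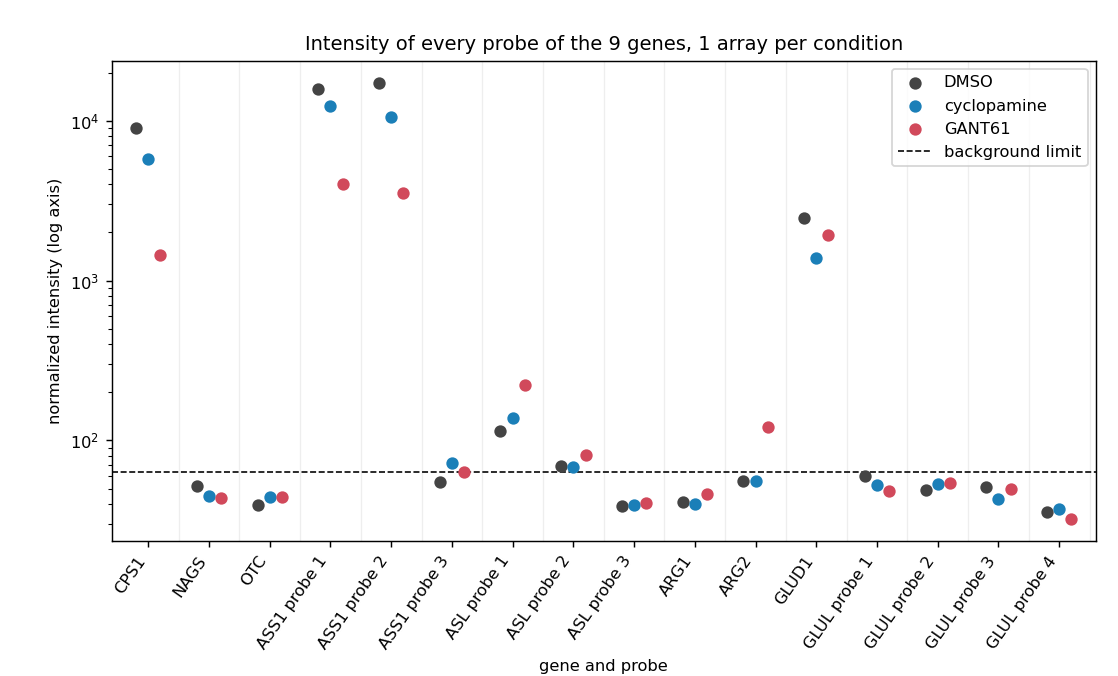
Normalized intensity (log axis) of all 16 probes of the 9 genes, with 1 point for each of the DMSO, cyclopamine and GANT61 arrays and the background limit of 63.75 as a dashed line. CPS1 and both bright ASS1 probes are lowest with GANT61, the ARG2 point of GANT61 stands above the limit at 121.6, and all probes of NAGS, OTC, ARG1 and GLUL lie below it.

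ASL, the lyase after ASS1, went the other way. Its brightest probe read 113.9 in DMSO-treated cells, 138.5 after cyclopamine and 222 after GANT61, which is 0.28 and 0.96 above DMSO on the log2 scale (SD between probes 0.32 and 0.37). The second ASL probe had 69.5, 67.7 and 81.3, and the third was not above background on any array. The probes of ASL therefore gave different sizes, 0.96, 0.23 and 0.052 with GANT61, and their mean was 0.41. Just short of 2-fold, ASL was not counted as changed, although it passed that size at 1.16 after subtraction of background and at up to 1.70 under scalings on reference genes given further on.

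ARG2, the mitochondrial arginase, read 55.8 in DMSO-treated cells and 55.6 after cyclopamine, both below the limit, but 121.6 after GANT61. Its level with GANT61 was thus at least 1.91-fold higher than with either other array, set against the limit. That bound is 0.93 on the log2 scale and under 2-fold. The measured values, 1.12 from DMSO and 1.13 from cyclopamine, rest on a signal not above background and are no estimate of size. ARG1, the cytosolic arginase of hepatocytes, was not above background, at 41.1, 39.8 and 46.1. ARG2 passed the filter on dim values only through the GANT61 array, where it is high.

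GLUD1 read 2467 in DMSO-treated cells, 1379 after cyclopamine and 1928 after GANT61. It was the 1 bright member that was lowest with cyclopamine, with log2 differences of −0.84 (SD between probes 0.37) and −0.36 (SD 0.42) from DMSO, and it was higher with GANT61 than with cyclopamine by 0.48 (SD 0.21). The GLUD1 value with GANT61 is within that SD, and under the reference scalings given further on the cyclopamine value was −0.37 or −0.071. GLUD1 is nearly identical in sequence to its retrogene GLUD2, which had no probe under the gene names used here. Whether the GLUD1 probe also reads GLUD2 was not tested. NAGS had 51.8, 44.6 and 43.4 and OTC 39.5, 44.3 and 44.2, so the activating enzyme and the step after CPS1 were both at background. The 4 probes of GLUL lay between 32.2 and 60.0 on the 3 arrays. For NAGS, OTC, ARG1 and GLUL these arrays show no order of the conditions.

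**Figure D2:**
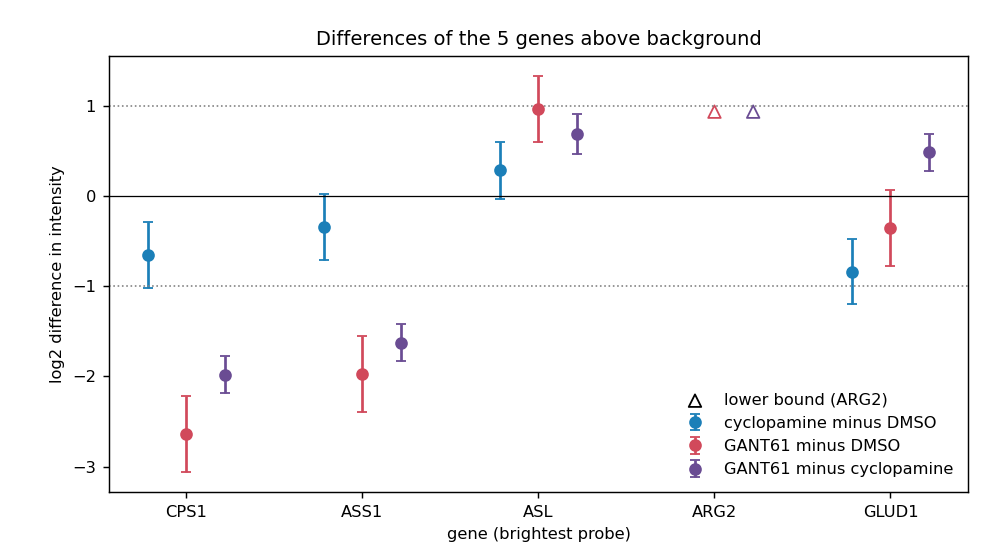
Log2 difference in intensity of the 5 genes above background on at least 1 array, by brightest probe, for each of the 3 pairs of arrays. Bars are 1 SD between probes of one gene at like brightness, from other genes, and the dotted lines mark 2-fold. CPS1 and ASS1 lie below −1 in both comparisons that involve GANT61, the open triangles show the lower bound of ARG2 (0.93), whose other arrays were not above background, and no gene passes 2-fold with cyclopamine against DMSO.

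Counted over the group, 0 of the 4 members above background passed 2-fold with cyclopamine in either direction, where 6.44% of 10236 genes were lower and 4.80% were higher. With GANT61, 2 of 5 (CPS1 and ASS1) were lower and by its measured value 1 (ARG2) was higher, where 9.77% of 10292 genes were lower and 8.28% were higher. Between the treated arrays the same 2 were lower and the same 1 was higher with GANT61 by its measured value, where 3.50% of 10141 genes were lower and 2.38% were higher. ARG2 entered only through the GANT61 array, and with dim values set to the limit 0 members were higher. Scaled on the median difference of the reference genes, described next, 96 genes were lower and 3738 higher with cyclopamine in place of 659 and 491, and 218 lower and 3748 higher with GANT61 in place of 1006 and 852, while 391 were lower and 214 higher between the treated arrays in place of 355 and 241. The members were chosen on these arrays, so nothing is read from these counts. The 2 comparisons with DMSO share the DMSO array. The median log2 difference over all genes above background was 0.032 with cyclopamine, 0.022 with GANT61 and 0.015 between the treated arrays.

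**Figure D3:**
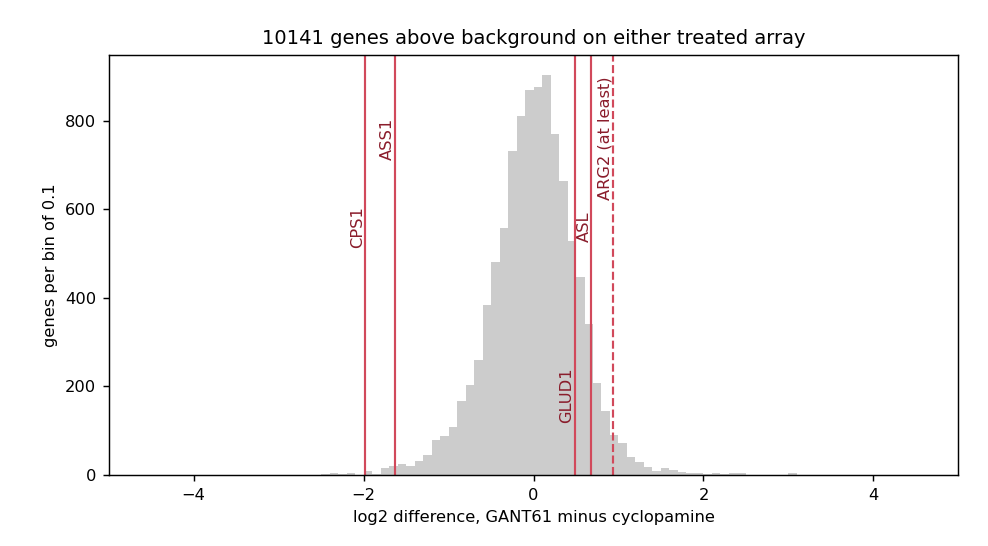
Histogram of the log2 difference between the treated arrays (GANT61 minus cyclopamine) for 10141 genes, in bins of 0.1, with vertical lines at 5 members. CPS1 (−1.98) and ASS1 (−1.63) lie far out on the lower side, and the dashed line is the lower bound of ARG2 (0.93), which was not above background with cyclopamine.

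The deposited values had been scaled so that the arrays share one distribution, and 11 genes commonly used as reference were mostly lower with both compounds. Their median log2 difference was −0.77 for cyclopamine and −0.73 for GANT61, which would move all genes up by 0.77 and 0.73 if the arrays were scaled on it. The value of CPS1 with GANT61 was then −1.91 and that of ASS1 −1.24, both still past 2-fold, whereas CPS1 turned to 0.11 and ASS1 to 0.42 with cyclopamine and GLUD1 to 0.38 with GANT61. Scaled on the median level of the same genes, these values were −2.41, −1.74, −0.19, 0.12 and −0.12. Between the treated arrays CPS1 ranged from −2.22 to −1.97 over all settings and ASS1 from −1.86 to −1.13.

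**Figure D4:**
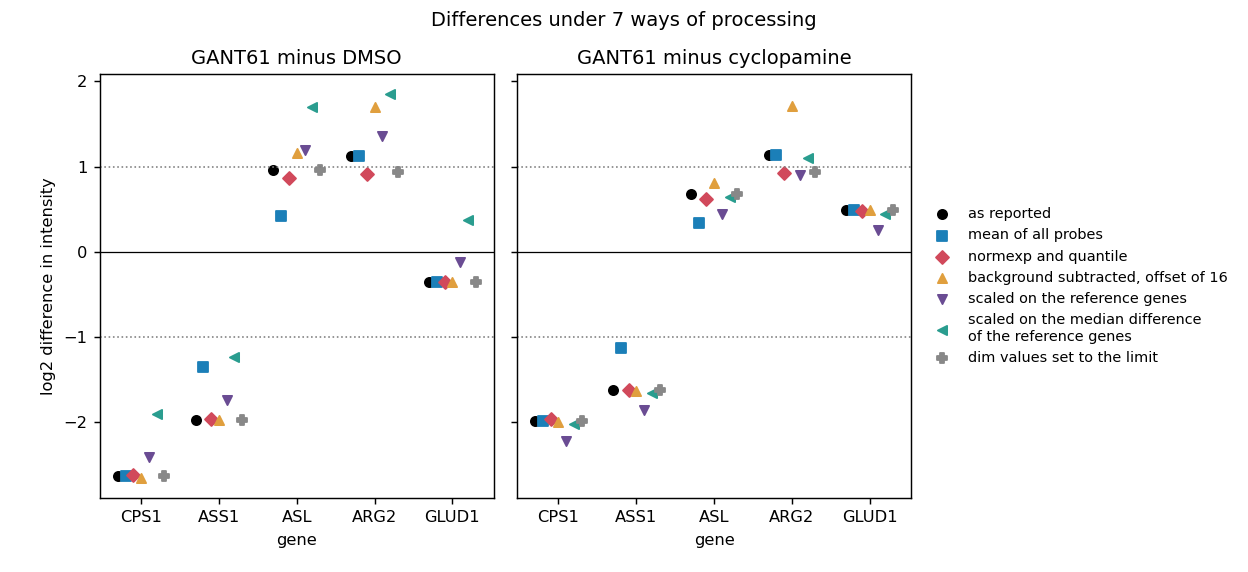
Log2 difference of the 5 genes above background under 7 ways of processing, for GANT61 minus DMSO and GANT61 minus cyclopamine, with dotted lines at 2-fold. CPS1 and ASS1 stay below −1 in both panels, ARG2 stays between 0.90 and 1.86, and GLUD1 crosses 0 in the left panel under 1 scaling.

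The labels describe the line as epithelial adenocarcinoma, and its markers of hepatocytes were nearly all at background. Of 14 hepatocyte markers with a probe, 1 was above background, ALB, at 69.6, 70.4 and 80.0. The defining markers APOA1, APOB, TTR, SERPINA1, AFP and the fibrinogen chains were below the limit on all arrays. The summed intensity of the 14 markers was 632, 634 and 637, most of it background, so the sum says little about a change. Of 5 epithelial markers, KRT8, KRT18 and EPCAM were above background, EPCAM at 401, 387 and 403 and KRT8 at 1423, 335 and 286, and the summed intensity of the 5 was 2109, 993 and 1009. Of 6 fibroblast markers, COL1A1 (205, 145.4 and 74.9) and PDGFRB (68.3 with DMSO) were above background, with sums of 461, 377 and 292. All 4 endothelial markers were at background. Of 5 immune markers, CD68, a lysosomal membrane protein, was above background at 238, 509 and 1032, while the defining markers PTPRC, CD3E, CD14 and CD163 were not, and the sums were 419, 704 and 1217. Whether what moves KRT8, COL1A1 or CD68 has a part in the values of the urea cycle genes was not tested.

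Promoters are shown for CPS1 and ASS1, the members shown to pass 2-fold with GANT61, and for ARG2, above background with GANT61 alone, because their base composition differs. Windows from RefSeq (GRCh38.p14), spanning 250 bases before and 50 bases past each annotated start, were found for all 9 members, 13 windows in all. Where a gene has several starts, the window with the most motif matches is shown, and of the 2 tied ASS1 windows the downstream one. Capitals mark matches on either strand, which may overlap, to the motifs searched. These were the TATA box with the letters TATAAA, the box named after its letters CCAAT, the GC box spelled GGGCGG, the E-box spelled CACGTG, the cAMP response element TGACGTCA, the cell cycle homology region spelled TTTAAA and the Gli motif GACCACCCA. They were chosen with the values known.
CPS1, chr2:210593105-210593404, plus strand: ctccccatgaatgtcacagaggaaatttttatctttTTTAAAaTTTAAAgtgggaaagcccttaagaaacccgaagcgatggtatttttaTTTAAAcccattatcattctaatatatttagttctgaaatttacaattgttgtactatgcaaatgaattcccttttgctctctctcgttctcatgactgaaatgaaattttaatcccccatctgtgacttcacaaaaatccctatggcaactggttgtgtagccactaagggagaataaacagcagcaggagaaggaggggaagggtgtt
ASS1, chr9:130444711-130445010, plus strand: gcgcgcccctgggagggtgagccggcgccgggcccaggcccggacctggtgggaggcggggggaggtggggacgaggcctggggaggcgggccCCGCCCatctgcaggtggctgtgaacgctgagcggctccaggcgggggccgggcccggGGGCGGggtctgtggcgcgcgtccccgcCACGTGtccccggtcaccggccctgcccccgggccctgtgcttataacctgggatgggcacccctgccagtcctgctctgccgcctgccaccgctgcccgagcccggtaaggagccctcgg
ARG2, chr14:67619670-67619969, plus strand: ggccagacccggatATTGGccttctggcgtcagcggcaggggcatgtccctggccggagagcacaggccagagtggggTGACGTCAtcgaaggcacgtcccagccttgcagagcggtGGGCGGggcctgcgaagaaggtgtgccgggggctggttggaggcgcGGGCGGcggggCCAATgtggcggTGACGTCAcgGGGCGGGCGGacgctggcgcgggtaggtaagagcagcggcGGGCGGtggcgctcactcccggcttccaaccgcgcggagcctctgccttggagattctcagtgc

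The CPS1 window holds 36.7% G and C, and the other 2 CPS1 windows 40.3% and 45.3%, while the ASS1 window shown holds 78.3% and the ARG2 window 71.0%. The median of all 35116 windows is 58.7%. CPS1 and ASS1, both low with GANT61, thus lie on opposite sides of that median. ARG2 holds 2 cAMP response elements, at −172 to −165 and −64 to −57 from the start, a motif found in 1.85% of all windows, and 5 GC boxes, of which 45.0% of windows hold at least 1. The ASS1 window shown holds 2 GC boxes and 1 E-box, and the CPS1 window shown 3 matches to TTTAAA. At least 1 E-box is in 7.26% of windows and at least 1 TTTAAA in 12.2%. The windows not shown differ, since the other ASS1 window holds TTTAAA at −156 to −151 and another CPS1 window an E-box at −46 to −41, so over all their windows both genes hold both motifs. Shares are per window and are not matched for base composition. The CPS1 window shown was picked for its number of matches, and a gene with several windows has more chances of a match. A TATA box by these letters was in the windows of ARG1 and OTC alone among the 9 members (11.5% of all windows). It lay at −29 to −24 from the start in ARG1 but further away, at −192 to −187, in OTC. The Gli motif was in 0 of the 13 windows (0.236% of all windows), which says only that these letters are not there. A match describes the letters and is not evidence of a bound factor.

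Genes that supply or use the intermediates of the cycle were taken from 6 lists, in which 38 of 47 genes with a probe were above background. By measured values, 5 of these were past 2-fold lower and 2 higher with cyclopamine, and 6 were lower and 3 higher with GANT61. The counts include ALDH4A1 with cyclopamine and DDAH2 and PRODH with GANT61, whose difference is set against a value not above background and whose bounds, given with each gene, are under 2-fold. For cyclopamine the median over the 38 genes was −0.079, and for GANT61 −0.22. The lists were chosen by role, and these counts stand beside shares of 6.44% lower and 4.80% higher over all genes with cyclopamine and of 9.77% and 8.28% with GANT61, as a description. Those shares turn mostly to higher under the reference scaling, as given above.

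Of the 7 transporters of the cycle, 6 were above background. SLC25A15, which exchanges ornithine and citrulline across the mitochondrial membrane, read 451, 491 and 367, and its dimmer probe 118.4, 82.0 and 116.3. SLC25A13 (citrin), which exports the aspartate used by ASS1, had 791, 755 and 662. Both stayed within 2-fold. SLC7A1, an arginine importer, was 1490, 2406 and 2186. The 1 transporter gene past 2-fold was SLC3A2, the heavy chain of several amino acid exchangers, at 2412, 1885 and 933 (log2 difference −1.37 with GANT61). Its dimmer probe read 261, 416 and 229, a log2 difference of −0.19 with GANT61. With cyclopamine the SLC3A2 probes went opposite ways, at −0.36 by the brighter and 0.67 by the dimmer.

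Ornithine leads to polyamines, and the genes of this branch gave the largest log2 differences of the 6 lists. SAT1, the acetyltransferase that starts polyamine breakdown, went from 1905 in DMSO-treated cells to 4123 after cyclopamine and 10547 after GANT61, by 1.11 and 2.47 on the log2 scale. SRM (spermidine synthase) went from 1212 to 337 and 361, at −1.84 and −1.75. ODC1, which makes putrescine from ornithine, had −0.65 with cyclopamine and 0.22 with GANT61, and AMD1, which supplies the aminopropyl donor, −0.24 and 1.00. AMD1, SLC25A15, SLC25A13, SLC7A1 and ODC1 were chosen after their values were seen. AGMAT, which hydrolyses agmatine, went from 303 to 144.6 and 237. DDAH2, which breaks down methylated arginine, had 122.8 and 65.9 and was not above background with GANT61 (at least 1.93-fold lower). NOS1, NOS2, NOS3 and GATM, other routes of arginine, were at background. Of 13 genes of this list above background, by measured values 2 were lower and 1 higher with cyclopamine, and 2 lower and 2 higher with GANT61, with medians of −0.25 and −0.17, which turned to 0.51 and 0.56 when scaled on the median difference of the reference genes.

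**Figure D5:**
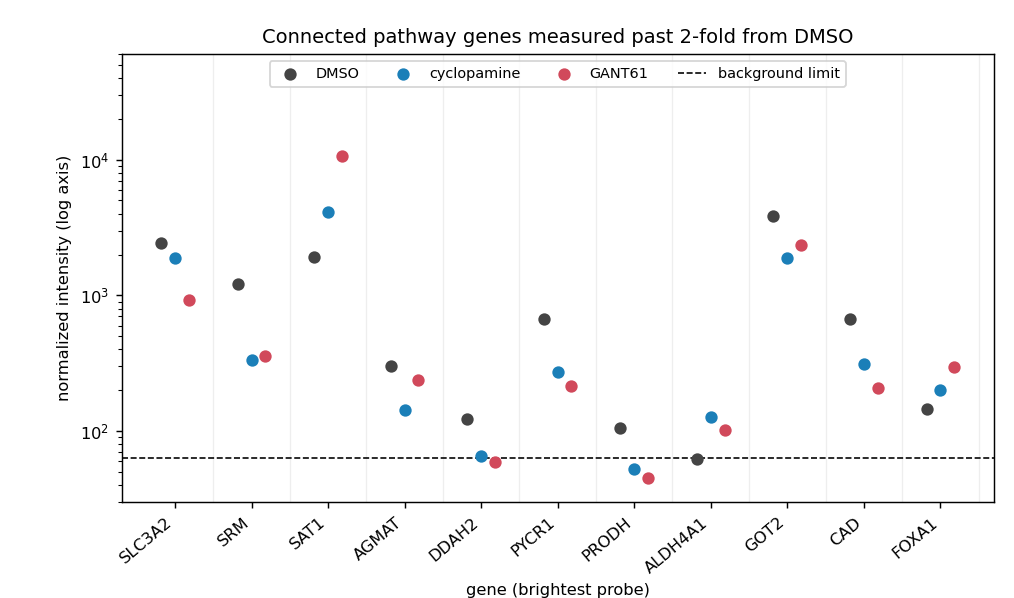
Normalized intensity (log axis) of the genes of the 6 lists that were above background and whose measured value was past 2-fold from DMSO with either compound, up to 4 per list, on each of the 3 arrays, with the background limit as a dashed line. SAT1 is highest with GANT61, SRM, PYCR1 and CAD are highest with DMSO, and PRODH is above the limit with DMSO alone.

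Proline is made from the same precursors. PYCR1, the last enzyme of proline synthesis, read 672, 274 and 216 (log2 −1.30 and −1.64 from DMSO), and its 2 dimmer probes were above the limit with DMSO alone. PRODH, the first enzyme of proline breakdown, was above background with DMSO alone, at 106.3, and so at least 1.67-fold lower with both compounds. ALDH4A1, the next step, had 62.9 with DMSO, below the limit, and 127.0 and 102.8, at least 1.99-fold and 1.61-fold higher. Another ALDH4A1 probe had 75.0, 58.7 and 51.9. The brighter probes of this gene thus went opposite ways.

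Carbamoyl phosphate for pyrimidines is made in the cytosol by CAD, a fusion enzyme whose first activity resembles that of CPS1. CAD read 672, 310 and 209, which is −1.11 and −1.68 from DMSO on the log2 scale. Unlike CPS1, CAD was past 2-fold with both compounds in the values as deposited. Scaled on the median difference of the reference genes, which moves all genes up by 0.77 and 0.73, CAD was past 2-fold with neither. Between the treated arrays CAD differed by −0.57 where CPS1 differed by −1.98, a contrast that was not tested. DHODH and UMPS, later steps of the pathway, stayed within 2-fold. Among 4 genes of glutamate and transamination above background, GOT2, the mitochondrial aspartate aminotransferase, went from 3856 to 1886 and 2330 (−1.03 and −0.73), and the other 3 stayed within 2-fold. The last list holds known regulators of urea cycle genes or of their enzymes, and 8 were above background. FOXA1, a pioneer factor of hepatocyte genes, had 145.5, 200.1 and 295 (log2 difference 1.02 with GANT61). The other 7 stayed within 2-fold. Among them CEBPA, which activates CPS1 in liver, had 128.6, 86.8 and 127.1, and SIRT5, a mitochondrial deacylase that acts on CPS1, 172.5, 254 and 146.8. CEBPA and SIRT5 were chosen after their values were seen. The median of the 8 regulators was 0.45 and 0.40. Averaging each gene over its probes brought it close to 0, at 0.095 and 0.043. Scaling on the median difference of the reference genes gave 1.21 and 1.13, and turned the medians of proline genes, glutamate genes and pyrimidine genes from negative to positive with both compounds.

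Genes with a pattern like that of CPS1 were sought among 753 genes above background on all 3 arrays whose mean log2 intensity lay within 1 of that of CPS1. The measure was the distance between the 2 log2 differences from DMSO, over 3 arrays. The nearest was CRIP1, a LIM domain protein, at a distance of 0.51, with intensities of 5642, 3959 and 1264. PHPT1 (0.87), PEBP1 (0.89), ERGIC3 (0.99) and IFITM3 (1.06) followed. The last 3 were lower with cyclopamine than CPS1 was, at −1.41, −1.01 and −0.88. ASS1 is brighter and lies outside this window. By its brightest probe its distance was 0.74, which all but 1 of the 753 genes exceed. That distance depends on the probe. The differences from DMSO were −0.72 and −2.28 by the other bright ASS1 probe, and −0.22 and −1.36 by the mean of all 3 probes. The CPS1 values were known when the group was chosen, so nothing is read from this order.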

How the data were processed

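The members and gene lists were chosen with earlier results of these data known. RNA was measured on Illumina HumanHT-12 v4 arrays, 1 per condition. Per the deposited table, 47319 probes have an intensity, linear and already normalized by the authors between arrays, since sorted values differ by at most 0.886% at any rank. What software did this is stated nowhere in the sources used here. The 6 columns of a second deposited table match no sample label and were not used. Gene names came from the platform annotation and RefSeq's gene table (30110 with 1 symbol, 8 with several, left out, and 17201 unnamed here). Of the named probes, 30071 matched by gene identifier. Differences are log2 intensities of 1 array minus another, by the brightest probe of a gene. Genes above background on either array entered the counts, and 2-fold stands in place of the DiffScore of the methods, which needs bead-level errors. The SD between probes comes from 2175 gene pairs of probes in 5 classes of brightness (scaled median absolute deviation). Named are all members, up to 4 list genes past 2-fold and the 5 genes nearest CPS1. No test was made with 1 array per condition. Log2 differences and 2-fold counts were tested on simulated data, with changes put only into genes well above the background limit. The SD between probes, the scalings, the search for genes like CPS1 and the motif search were not tested in this way. Alternatives were other backgrounds (normexp with an offset of 50 in limma 3.58.1 and R 4.3.3, or subtraction with an offset of 16), gene means, scalings, limits and folds. Python 3.11.15, numpy 2.4.6, pandas 2.3.3 and matplotlib 3.10.9 were used.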

Additional observations from a re-analysis of the deposited data

How the results depend on the processing

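With 1 array per condition no replicate could be left out. No paired analysis was possible because each condition has 1 array. A value was taken as moved where it changed by more than the SD between probes. The log2 difference of CPS1 with GANT61 was −1.91 when scaled on the median difference of the reference genes, a scaling chosen after seeing the data, and within that SD of −2.64 under the other settings. With cyclopamine CPS1 was −0.19 when scaled on the median level of the reference genes and 0.11 on their median difference. Between the treated arrays it was −2.22 on the median level. The count of members lower with GANT61 was 2 under every setting run, against both other arrays. With cyclopamine 2 members were lower at 1.5-fold, and 1 was higher when scaled on the median difference. The count of members higher with GANT61 than with DMSO (1, ARG2, by its measured value) was 0 with normexp, with dim values set to the limit and at 3-fold, and 2 with background subtraction, on either reference scaling and at 1.5-fold. Higher than with cyclopamine was 1 member as reported, 0 with normexp, on the median reference level, with dim values set to the limit and at 3-fold, and 2 at 1.5-fold. The cause of these shifts was not tested beyond the construction of each setting. Of 270 values for other members and list medians, 66 moved by more than the SD. Most of these moves follow from how a reference scaling is built. It shifts all genes of an array by the same amount, so it moved either all of these values in a comparison or none. The other moves were those of ASS1 and ASL with the mean of all probes and of ARG2 with background subtraction, each with GANT61. A reversal was looked for only where the reported difference was past 2-fold. Among the results behind the 270 values that held only for ASS1 and ARG2 with GANT61 against either other array, and none reversed. Smaller differences did change sign, such as ASS1 with cyclopamine (−0.35 to 0.42) and GLUD1 with GANT61 (−0.36 to 0.38). The low intensities of ARG2 and ASL limit how firmly their sizes can be stated.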

Other observations

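CPS1-IT1, named as an intronic transcript of CPS1 and chosen after its values were seen, had a normalized intensity of 64.1 in DMSO-treated cells, 65.8 after cyclopamine and 54.4 after GANT61, near the background limit of 63.75.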
